A study of Mus musculus with 8 samples.

Results

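9 genes that mark border-associated macrophages were followed in sorted mouse microglia: Mrc1, Cd163, Lyve1, Pf4, Cbr2, Ms4a7, Stab1, Folr2 and Clec10a. They were matched by symbol to the Ensembl identifiers of the deposited count tables, and all 9 were found among 41388 identifiers. Each of the 9 also passed the low-count filter that left 12002 genes for testing, so no member was lost before the tests.

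Border-associated macrophages are the resident macrophages of the meninges, the choroid plexus and the spaces around brain vessels. They lie at the interfaces of the brain with blood and cerebrospinal fluid, take up material from both, and are separate from microglia, the macrophages inside the nervous tissue. They carry CD11b and CD45 as microglia do, and several of their marker genes encode scavenger or lectin receptors that bring ligands into the cell.

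RNA was sequenced from cells isolated by CD11b, CD45 and CD11c from C57BL/6 mice, adults per the series' design text, in 8 libraries. CD11c, encoded by Itgax, is an integrin subunit that marks a microglial subset in disease. The 3 groups were CD11c+ microglia of mice with neuromyelitis optica (NMO, an inflammation that strikes the optic nerve and spinal cord; n = 2), the CD11c- microglia of such mice (n = 3) and microglia of control mice (n = 3). The control cells are CD11c negative by 1 label but total microglia from unmanipulated animals by their titles, and no CD11c+ control group is among the labels. The sources used here do not give how NMO was brought about, the age in weeks or the sex of the mice, or the number of mice in a library. P-values therefore measure the spread between these samples, which may in part be technical. Control libraries are numbered 21 to 23 and NMO libraries 7 to 12, so handling and disease cannot be told apart in comparisons with controls.

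The libraries held 4943207 and 5914412 counts in the CD11c+ group, 6437516 to 6819662 in the NMO CD11c- group and 7500815 to 9246061 in controls. Itgax averaged 185 CPM (counts per 1e+06 counts of the scaled library) in CD11c+ libraries, 38.9 in NMO CD11c- libraries and 31.2 in controls. All 13 microglia markers checked had counts in every group, with a summed level of 37940 to 52060 CPM. The 11 neutrophil markers summed to 17.2 and 21.9 CPM in CD11c+ libraries, where Ly6g was at 0, to 2226 to 11530 CPM in NMO CD11c- libraries and to 923.9 to 1908 CPM in controls. The 12 monocyte markers summed to 419.3 and 484.1 CPM, 635.7 to 1639 CPM and 279.2 to 401.5 CPM in the same order. CD11c+ replicate 1 stood apart in base composition: its deviation from the mean log2 level correlated with gene GC content across genes (Spearman rho 0.592, against -0.299 to -0.0378 in the other 7 libraries). Genes are not independent replicates, so no test goes with these correlations.

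The 9 genes differed widely in level, and that order was led by the same 2 genes in each group. Per kilobase of exon, Stab1 stood at 145.5 ± 1.67 CPM per kb in controls (SD, n = 3) and Mrc1 at 8.47 ± 2.96. Then came Pf4 at 2.88 ± 2.03, Cbr2 at 1.96 ± 1.28, Cd163 at 1.51 ± 0.966, Folr2 at 1.26 ± 0.54, Lyve1 at 0.889 ± 0.657, Clec10a at 0.775 ± 0.528 and Ms4a7 at 0.564 ± 0.279 CPM per kb. In controls Stab1 lay above every library of Mrc1, and the lowest Mrc1 library (5.59 CPM per kb) lay above the highest Pf4 library (4.9). From Pf4 downwards each gene overlapped the next in the order.

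The order was led by Stab1 and Mrc1 in both NMO groups too, again without overlap with each other or with the third gene. Folr2 took the 4th place in NMO CD11c- libraries (4.19 ± 0.994 CPM per kb, SD, n = 3) and the 3rd in CD11c+ libraries (3.66 ± 0.988, n = 2), against the 6th in controls. Ms4a7, last in controls, was 7th in both NMO groups at 1.75 ± 0.516 and 1.47 ± 0.124 CPM per kb. From the third gene down, neighbours in the order overlapped in both NMO groups. Summed over the 9 genes the level was 1273 and 2008 CPM in CD11c+ libraries, 1495 to 1626 CPM in NMO CD11c- libraries and 1557 to 1588 CPM in controls, and most of each sum was Stab1.

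**Figure D1:**
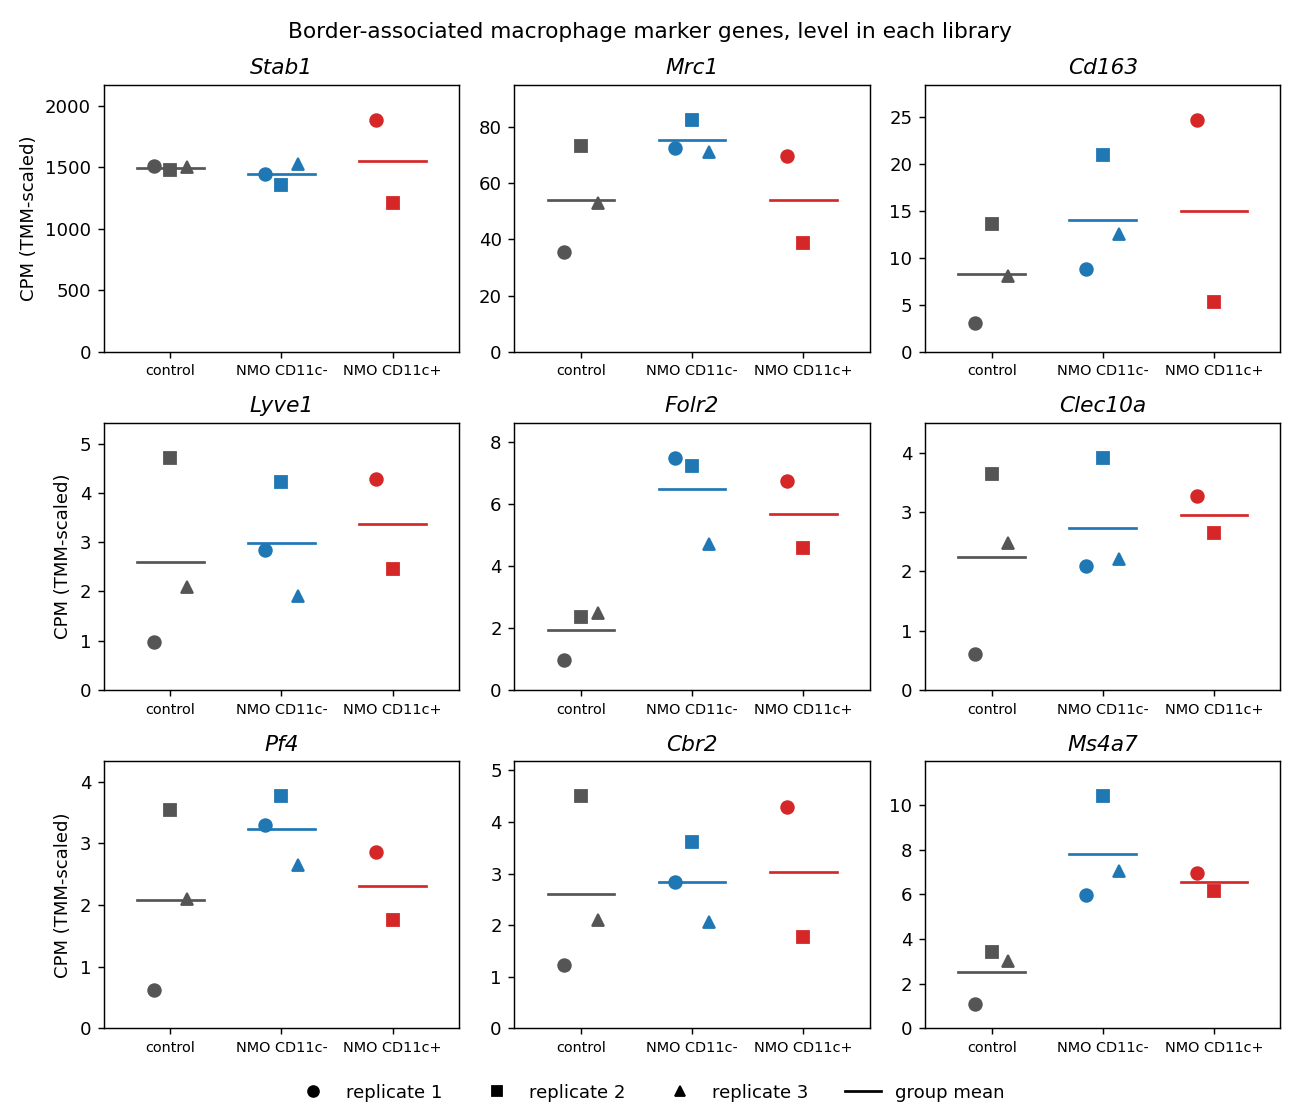
Level of each of the 9 border-associated macrophage genes in every library, in CPM on linear axes that start at 0, by group (symbols are replicates, horizontal lines the group mean). Stab1 lies between 1210 and 1886 CPM, Mrc1 between 35.6 and 82.7 CPM, and the other 7 genes reach 24.7 CPM at most. Ms4a7 and Folr2 are the 2 genes whose NMO libraries all lie above the control libraries.

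The promoters of 4 members are shown as the ones the results below turn on: Ms4a7 and Folr2, the 2 members called between groups, and Mrc1 and Stab1, the 2 most abundant. Sequences are RefSeq promoters on GRCm38.p6, 250 bases before to 50 bases after the start, written 5′ to 3′ in the sense of the gene. Capitals mark matches, on either strand, to the motifs searched. These were GAGGAAGT (of the PU.1 type), TGCTGAC (of the Maf type), an interferon response element type motif, TTCNNNGAA (of the STAT type), its wider form with 1 more base between TTC and GAA, and CACCC (of the Klf type).
Ms4a7, chr19:11336097-11336396, minus strand: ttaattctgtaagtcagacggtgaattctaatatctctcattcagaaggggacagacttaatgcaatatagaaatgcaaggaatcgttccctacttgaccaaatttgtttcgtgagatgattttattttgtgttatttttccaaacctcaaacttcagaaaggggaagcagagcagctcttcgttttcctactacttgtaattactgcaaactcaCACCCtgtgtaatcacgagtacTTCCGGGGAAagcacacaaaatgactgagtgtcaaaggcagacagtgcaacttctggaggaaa
Folr2, chr7:101857141-101857440, minus strand: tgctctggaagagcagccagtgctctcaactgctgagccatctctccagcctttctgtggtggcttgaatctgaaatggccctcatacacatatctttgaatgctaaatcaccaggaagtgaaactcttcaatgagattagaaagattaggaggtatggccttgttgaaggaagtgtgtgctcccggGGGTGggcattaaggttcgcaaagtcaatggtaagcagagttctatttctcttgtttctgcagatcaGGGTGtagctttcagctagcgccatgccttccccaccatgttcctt
Mrc1, chr2:14229164-14229463, plus strand: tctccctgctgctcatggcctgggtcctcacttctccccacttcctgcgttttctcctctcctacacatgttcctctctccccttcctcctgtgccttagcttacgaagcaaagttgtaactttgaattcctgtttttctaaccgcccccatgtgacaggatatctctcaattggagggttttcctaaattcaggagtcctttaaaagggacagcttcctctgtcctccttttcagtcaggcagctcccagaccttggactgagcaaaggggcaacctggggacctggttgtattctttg
Stab1, chr14:31168592-31168891, minus strand: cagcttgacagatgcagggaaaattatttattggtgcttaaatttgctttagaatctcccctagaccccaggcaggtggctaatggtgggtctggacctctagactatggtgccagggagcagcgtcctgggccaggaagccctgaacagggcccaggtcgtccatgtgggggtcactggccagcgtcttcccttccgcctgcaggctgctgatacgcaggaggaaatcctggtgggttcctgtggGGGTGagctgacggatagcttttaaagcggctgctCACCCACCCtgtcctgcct

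Ms4a7 held CACCC and TTCCGGGGAA, a match to the wider STAT type motif, that begins 13 bases before the start. Folr2 held CACCC on the reverse strand, written GGGTG, in 2 places. Stab1 held 3 matches to CACCC, of which the last 2 overlap, and the Mrc1 window held no match to any of the motifs. Of 32851 RefSeq promoters of 300 bases, 57.5% held CACCC, 6.95% the wider STAT type motif, 8.3% TTCNNNGAA, 4.67% TGCTGAC, 3.44% the interferon response element type motif and 3.2% GAGGAAGT. Among the other members the Pf4 promoter held GAGGAAGT on its reverse strand, Cbr2 held CACCC, the wider STAT type motif and TGCTGAC, and Cd163 held none of them. In all 7 of the 9 members had an entry in the promoter table, Lyve1 and Clec10a were not among them, and a match is a match of letters only. Ms4a7 and Folr2 each had a second entry, for another start, and these are not shown.

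Stab1 encodes stabilin-1, a large scavenger receptor that takes up modified lipoproteins and matrix fragments (ENSMUSG00000042286, GRCm38 chr14:31139013-31168641, minus strand). It had 1886 and 1210 CPM in CD11c+ libraries, 1446, 1359 and 1522 CPM in NMO CD11c- libraries, and 1513, 1479 and 1498 CPM in controls. The control libraries lay within 1.02-fold of each other, both other groups overlapped them, and the widest spread was between the 2 CD11c+ libraries. Stab1 was not called in any comparison. NMO CD11c- against control gave a log2 difference of -0.05 (95% interval -0.40 to 0.29, adjusted p = 0.891, edgeR quasi-likelihood test). For CD11c+ against NMO CD11c- it was 0.10 (-0.28 to 0.48, adjusted p = 0.784), and against controls 0.05 (-0.33 to 0.43, adjusted p = 0.879). Without CD11c+ replicate 2, Stab1 was called higher in the remaining CD11c+ library than in NMO CD11c- libraries (log2 0.39, adjusted p = 0.0276) and controls (0.33, adjusted p = 0.0399), where the lone library is assumed to vary like the other groups. Without CD11c+ replicate 1, the library with the GC trend, both differences were negative, at -0.25 and -0.31. Exons of Stab1 overlap those of Nt5dc2 on the opposite strand.

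Mrc1 encodes the mannose receptor CD206, which binds and takes up glycoproteins that end in mannose (ENSMUSG00000026712, chr2:14229392-14332057, plus strand). It had 69.7 and 38.8 CPM in CD11c+ libraries, 72.4, 82.7 and 71.1 CPM in NMO CD11c- libraries and 35.6, 73.3 and 53.0 CPM in controls. Both CD11c+ libraries lay below every NMO CD11c- library, and control replicate 2 lay among the latter. The log2 difference was 0.48 for NMO CD11c- against control (SE 0.25, adjusted p = 0.345), -0.48 for CD11c+ against NMO CD11c- (SE 0.29, adjusted p = 0.427) and -0.0021 for CD11c+ against control (95% interval -0.65 to 0.65, adjusted p = 0.998). None of these passed the threshold of 0.05 on the adjusted p. With no low-count filter the first of them did (log2 0.46, adjusted p = 0.0279).

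Cd163 encodes the receptor that clears haemoglobin bound to haptoglobin (ENSMUSG00000008845, chr6:124304656-124330527, plus strand). Its levels were 24.7 and 5.29 CPM in CD11c+ libraries, 8.83, 20.9 and 12.5 CPM in NMO CD11c- libraries and 3.06, 13.6 and 8.11 CPM in controls. The range within each group was wider than the distance between any 2 group means, with a 4.45-fold range in controls. The log2 difference from controls was 0.75 in NMO CD11c- libraries (SE 0.58, adjusted p = 0.535) and 0.82 in CD11c+ libraries (SE 0.65, adjusted p = 0.431), and the NMO groups differed by 0.07 (adjusted p = 0.965).

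Lyve1 encodes a hyaluronan receptor shared with lymphatic endothelium (ENSMUSG00000030787, chr7:110850607-110863239, minus strand). It had 4.29 and 2.47 CPM in CD11c+ libraries, 2.84, 4.22 and 1.91 CPM in NMO CD11c- libraries and 0.978, 4.71 and 2.09 CPM in controls. Control replicate 2 was the highest of the 8 libraries and control replicate 1 the lowest. Those values stand for 44 counts (95% Poisson interval 32.0 to 59.1, counting error only) and 8 counts (3.45 to 15.8). The difference from controls did not pass the test in NMO CD11c- libraries (log2 0.18, adjusted p = 0.894) or in CD11c+ libraries (0.34, adjusted p = 0.74). Of the 5 lymphatic endothelial markers, Pdpn and Mmrn1 had no counts in any library. The 5 summed to 25.2 and 27.2 CPM in CD11c+, 22.7 to 24.5 in NMO CD11c- and 28.8 to 33.2 in control libraries. In controls Prox1 was the 1 marker with counts, so the sum there is Prox1.

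Clec10a encodes the lectin MGL1, which binds glycans that end in galactose or its N-acetyl form (ENSMUSG00000000318, chr11:70156197-70170834, plus strand). It had 3.27 and 2.64 CPM in CD11c+ libraries, 2.1, 3.92 and 2.2 CPM in NMO CD11c- libraries and 0.612, 3.64 and 2.48 CPM in controls. The control range was 5.96-fold, the widest of the 9 genes, from 5 counts (1.62 to 11.7) to 34 counts (23.6 to 47.5). It was not called in any comparison, with log2 differences of 0.27 for NMO CD11c- against control (adjusted p = 0.832), 0.11 between the NMO groups (adjusted p = 0.942) and 0.37 for CD11c+ against control (adjusted p = 0.712). Its close paralog Mgl2, at 2.34 CPM in NMO CD11c- libraries and 1.83 CPM in controls, may share reads with it, so the split between them is uncertain.

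Pf4 encodes the chemokine CXCL4, better known from platelet granules (ENSMUSG00000029373, chr5:90772435-90773383, plus strand). It had 2.86 and 1.76 CPM in CD11c+ libraries, 3.29, 3.76 and 2.65 CPM in NMO CD11c- libraries and 0.612, 3.54 and 2.09 CPM in controls. The groups overlapped, and the log2 difference of 0.61 for NMO CD11c- against control did not pass (SE 0.49, adjusted p = 0.554). For CD11c+ libraries it was 0.12 against controls (adjusted p = 0.916) and -0.49 against NMO CD11c- libraries (adjusted p = 0.681). Ppbp, which encodes the other main platelet chemokine, had no counts in any of the 8 libraries, as had the platelet gene Gp6. The 12 platelet markers summed to 127.7 and 164.8 CPM in CD11c+, 154.3 to 167.8 in NMO CD11c- and 168.7 to 193.5 in controls. Counts were found for 8, 9 and 8 of the 12 in the same order.

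Cbr2 encodes a carbonyl reductase, an enzyme that reduces aldehydes and ketones (ENSMUSG00000025150, chr11:120729489-120732114, minus strand). It had 4.29 and 1.76 CPM in CD11c+ libraries, 2.84, 3.61 and 2.06 CPM in NMO CD11c- libraries and 1.22, 4.5 and 2.09 CPM in controls. Its group means were the closest of the low-level members, at 3.03 ± 1.79, 2.84 ± 0.778 and 2.6 ± 1.7 CPM (SD, n = 2, 3 and 3). The log2 difference was 0.10 for NMO CD11c- against control (95% interval -1.0 to 1.2, adjusted p = 0.94), 0.07 between the NMO groups (-1.22 to 1.36, adjusted p = 0.961) and 0.17 for CD11c+ against control (-1.10 to 1.44, adjusted p = 0.871). Differences of Cbr2 within those intervals were not detectable here.

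Folr2 encodes folate receptor beta, which takes folate into macrophages (ENSMUSG00000032725, chr7:101839988-101857194, minus strand). It had 7.48, 7.23 and 4.7 CPM in NMO CD11c- libraries (50, 48 and 32 counts) and 0.978, 2.36 and 2.48 CPM in controls (8, 22 and 19 counts). In CD11c+ libraries it had 6.74 and 4.58 CPM (33 and 26 counts). Every NMO library lay above every control library, and the 2 NMO groups overlapped. Folr2 was higher in NMO CD11c- cells than in controls by 3.31-fold (log2 1.72, SE 0.36, adjusted p = 0.0274) and in CD11c+ cells by 2.88-fold (log2 1.53, SE 0.40, adjusted p = 0.0412). CD11c+ and NMO CD11c- libraries differed by -0.20 (95% interval -1.04 to 0.64, adjusted p = 0.809).

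Both Folr2 calls rested on few libraries. The call in NMO CD11c- cells was lost without NMO CD11c- replicate 1 or 2 (adjusted p = 0.087 for each) and without control replicate 1, 2 or 3 (0.0933, 0.0854 and 0.0743), with log2 differences of 1.41 to 1.92. The call in CD11c+ cells was lost with CD11c+ replicate 1 left out (adjusted p = 0.173), as it was for NMO CD11c- replicate 1 or 3 (0.0637 and 0.0506) and for control replicate 1, 2 or 3 (0.0975, 0.0851 and 0.0801), with scaling by library size only (0.0507), and with only those 2 groups in the fit (0.0838). Exons of Folr2 overlap those of Gm10602 on the opposite strand, and whether the counting used strand is not known here.

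Ms4a7 encodes a membrane protein of the MS4A family that spans the membrane several times (ENSMUSG00000024672, chr19:11321039-11336146, minus strand). It had 5.98, 10.4 and 7.05 CPM in NMO CD11c- libraries (40, 69 and 48 counts) and 1.1, 3.43 and 3.01 CPM in controls (9, 32 and 23 counts). In CD11c+ libraries it had 6.94 and 6.17 CPM (34 and 35 counts). As for Folr2, every NMO library lay above every control library. Ms4a7 was higher in NMO CD11c- cells than in controls by 3.07-fold (log2 1.62, SE 0.37, adjusted p = 0.0397). In CD11c+ cells the log2 difference from controls was 1.37 (SE 0.42), which missed the threshold (adjusted p = 0.0637). It passed with no low-count filter (adjusted p = 0.00327), with DESeq2 (0.027), with the edgeR exact test (0.0169) and after correction for GC content and length (0.0349). CD11c+ and NMO CD11c- libraries differed by -0.25 (95% interval -1.13 to 0.62, adjusted p = 0.763).

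The Ms4a7 call in NMO CD11c- cells was lost without any single one of the 6 libraries compared. The adjusted p was then 0.0593, 0.142 and 0.0694 without NMO CD11c- replicate 1, 2 and 3, and 0.1, 0.0755 and 0.112 without control replicate 1, 2 and 3, with log2 differences of 1.27 to 1.93. In a bulk sample such a difference cannot be told apart from a different number of cells that express the gene.

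Of the 9 members, 2 were called higher and 0 lower in NMO CD11c- cells against controls, where 3% of the tested genes were called higher and 0.717% lower. Their libraries lay fully above the controls in these same 2 members, as they did in 17.6% of the tested genes. The median log2 difference of the 9 was 0.48, with 8 of 9 positive, against a median of -0.0040 over all tested genes, of which 49.4% were positive. In CD11c+ cells against controls 1 member was called higher and 0 lower (6.85% and 3.36% of the tested genes, 10.2% in all), the median was 0.34 with 8 of 9 positive (50.5% of tested genes positive), and 2 members lay fully above the controls (22.2% of tested genes). These comparisons share the 3 control libraries.

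Between CD11c+ and NMO CD11c- cells 0 of the 9 members were called by the edgeR quasi-likelihood test (0.283% of the tested genes were called in either direction), 0 had an unadjusted p under 0.05, and DESeq2 and the edgeR exact test also called 0. The median log2 difference was 0.07, with 5 of 9 positive, against 0.01 over all tested genes, of which 51.4% were positive. Mrc1 was the 1 member whose CD11c+ libraries lay fully below the NMO CD11c- libraries, as 14.2% of tested genes did. The library left out mattered here too: 1 member, Stab1, was called without CD11c+ replicate 2, as given above.

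**Figure D2:**
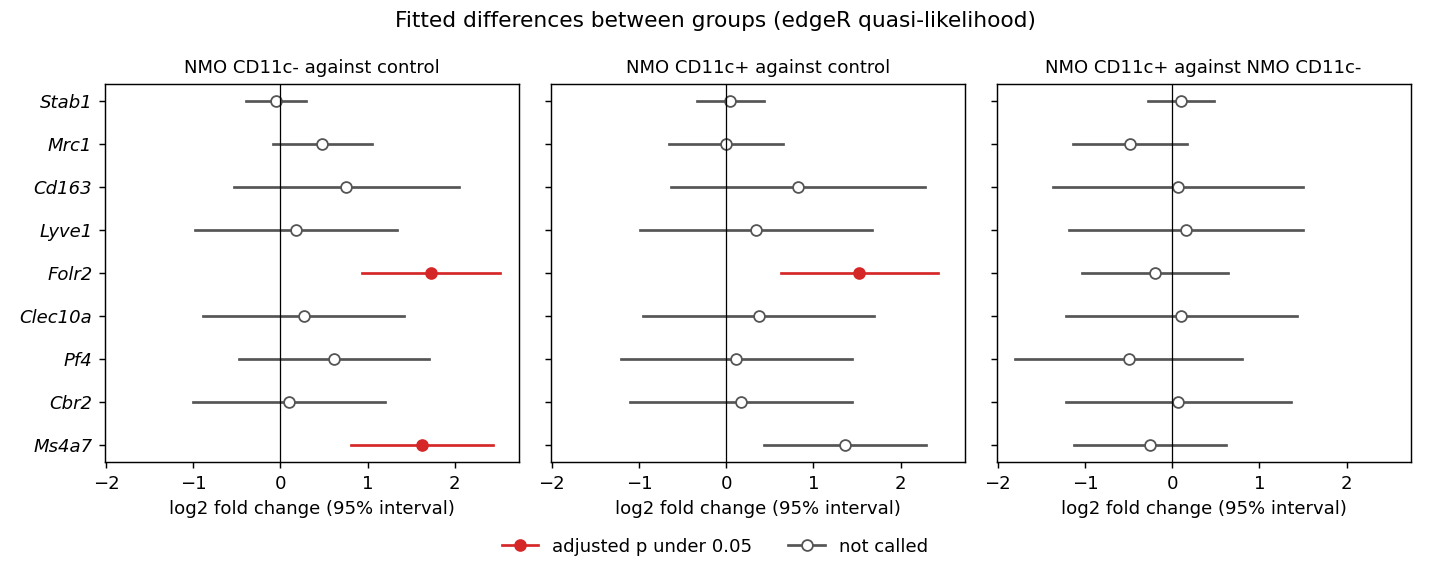
Fitted log2 differences of the 9 genes in the 3 comparisons, with 95% intervals from the edgeR fit (circles are estimates, filled red where the adjusted p is under 0.05). Folr2 at 1.72 and 1.53 and Ms4a7 at 1.62 are the called differences, all against controls, while the Stab1 intervals are the narrowest and lie around 0.

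Among markers of other cells, 2 of 11 tested neutrophil genes (S100a8 and Cxcr2) and 5 of 11 tested monocyte genes were called higher in NMO CD11c- libraries than in controls, and the fitted log2 difference was positive in 11 of 11 of each. The neutrophil count ran from 0 to 8 with a library left out, and was 0 when replicate 1 or 2 of either group was the one left out. The monocyte count ran from 1 to 5, and was 1 without control replicate 1 or 2. The part of both lists in the Folr2 and Ms4a7 differences was not tested.

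In CD11c+ libraries Folr2 stood at 5.66 ± 1.53 CPM and Ms4a7 at 6.56 ± 0.551 CPM (SD, n = 2), against 1.94 ± 0.835 and 2.51 ± 1.24 CPM in controls (n = 3). The neutrophil sum in these CD11c+ libraries lay below every control, at 17.2 and 21.9 CPM against 923.9 to 1908 CPM. The monocyte sum lay above every control, at 419.3 and 484.1 CPM against 279.2 to 401.5 CPM. The 13 microglia markers summed to 37940 and 38990 CPM in CD11c+ libraries, below every control (46990 to 52060 CPM). In NMO CD11c- replicates 1, 2 and 3 they summed to 47690, 38410 and 44450 CPM, and replicate 1 alone reached the control range. Of these 13 markers 2 were called lower in NMO CD11c- cells and 6 in CD11c+ cells, against controls. With a library left out these counts ran from 0 to 5 and from 3 to 7. The first was 0 with any 1 control left out, or NMO CD11c- replicate 2 or 3, and the second was 3 without control replicate 2. Whether that bears on the members was not tested.

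Within a group, most members rose and fell together from library to library. In controls 7 of the 9 genes, all but Stab1 and Folr2, were highest in replicate 2, then replicate 3, then replicate 1, an order held by 16.0% of all tested genes. Control replicate 1 was the lowest control for 8 of 9 members, as for 34.3% of the tested genes. In NMO CD11c- libraries replicate 2 was the highest for 7 of 9 members, again all but Stab1 and Folr2 (39.2% of the tested genes). CD11c+ replicate 1 lay above replicate 2 for 9 of 9 members, as for 49.3% of the tested genes. These orders were looked at after the values were seen, and are given as a description.

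**Figure D3:**
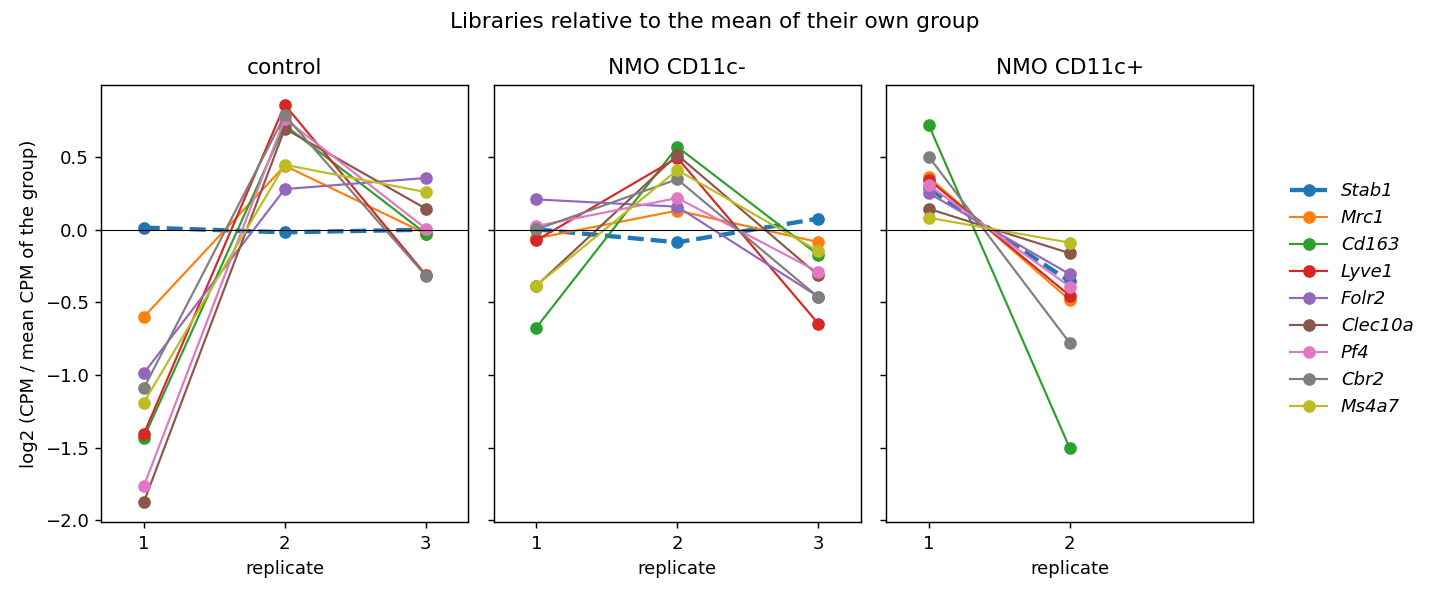
Level of each member in each library relative to its group mean, on a log2 scale, in a panel per group (lines join the libraries of 1 gene, and replicates have no order). In controls the 7 genes other than Stab1 and Folr2 share the order replicate 2, replicate 3, replicate 1, while Stab1 stays flat with an SD of 0.02.

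The spread that came with this was wide in controls. In controls the SD of log2 CPM was 0.52 for Mrc1, 1.04 for Cd163, 0.99 for Lyve1, 1.06 for Pf4, 0.84 for Cbr2, 0.78 for Ms4a7, 0.63 for Folr2 and 1.11 for Clec10a. Tested genes within 0.5 log2 units of the same level had a median SD of 0.09 beside Mrc1, 0.16 beside Cd163, 0.32 beside Pf4 and Clec10a and 0.23 to 0.30 beside the other 4. Stab1 was the exception, with 0.02 against 0.10 at its level. The NMO groups were mixed. In NMO CD11c- libraries Cd163 had 0.61 against 0.18, but Mrc1 0.12 against 0.10, Pf4 0.24 against 0.36 and Cbr2 0.37 against 0.36. In CD11c+ libraries (n = 2) Cd163 had 1.53 against 0.27 and Mrc1 0.59 against 0.21, but Ms4a7 0.12 against 0.32 and Clec10a 0.20 against 0.41. Deviations from the group means correlated between Mrc1 and the 7 low-level members across the 8 libraries with Pearson r of 0.767 (Ms4a7) to 0.966 (Cbr2), and with r of 0.522 for Stab1, as a description of libraries that share depth and preparation.

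The same control order was then counted in other lists. Of the 20 tested genes of a further list of border macrophage genes, 8 had the control order of replicates 2, 3 and 1, among them F13a1, Siglec1, Dab2 and Apoe. In the class II antigen presentation list 4 of 7 genes had it (H2-Aa, H2-Ab1, H2-Eb1 and Cd74), and in the microglia, monocyte and neutrophil lists it was 0 of 13, 0 of 11 and 0 of 11. Of the tested genes in other lists, 3 of 9 scavenger receptors, 2 of 12 family relatives and 1 of 14 polarising signals and regulators had it. Neutrophil genes were lowest in control replicate 1 in 11 of 11 cases (34.3% of all tested genes). They were highest in NMO CD11c- replicate 2 in 9 of 11 (39.2% of all tested genes). Their sums were 3280, 11530 and 2226 CPM in NMO CD11c- replicates 1, 2 and 3. The part of neutrophil RNA in the member levels of that library was not tested.

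Since most members varied with Mrc1 from library to library, each was also set against the Mrc1 count of its own library. Per 100 Mrc1 counts, Folr2 had 10.3, 8.74 and 6.61 counts in NMO CD11c- libraries and 9.68 and 11.8 in CD11c+ libraries, against 2.75, 3.22 and 4.69 in controls. Ms4a7 had 8.26, 12.6 and 9.92 in NMO CD11c- libraries and 9.97 and 15.9 in CD11c+ libraries, against 3.09, 4.68 and 5.68 in controls. Both genes lay above every control in each NMO group by this measure. In NMO CD11c- against control 1.98% of the tested genes did so, and in CD11c+ against control 6.22%. These shares depend on Mrc1 itself, since a higher Mrc1 count lowers every ratio to it. Its log2 difference was 0.48 in NMO CD11c- against control (not called). By CPM, 17.6% and 22.2% of the tested genes lay fully above the controls in the 2 comparisons. In CD11c+ against NMO CD11c- libraries 3 members lay fully above, Lyve1, Cbr2 and Stab1, as 43.6% of tested genes did. No member lay fully below the controls in NMO CD11c- libraries by this measure, as 31.4% of tested genes did, and none lay fully below the NMO CD11c- libraries in CD11c+ libraries (1.57% of tested genes).

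The ratio of group means was 2.41 for Folr2 and 2.29 for Ms4a7 in NMO CD11c- against control, and 3.03 and 2.89 in CD11c+ against control. The 5 members Cd163, Lyve1, Pf4, Cbr2 and Clec10a overlapped the controls in both NMO groups. Lyve1, for example, had 3.93, 5.1 and 2.69 counts per 100 Mrc1 counts in NMO CD11c- libraries and 2.75, 6.43 and 3.95 in controls. The measure was chosen after the values were seen and has no test: with 3 libraries against 3, an exact permutation test of 1 value cannot go below p = 0.10.

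**Figure D4:**
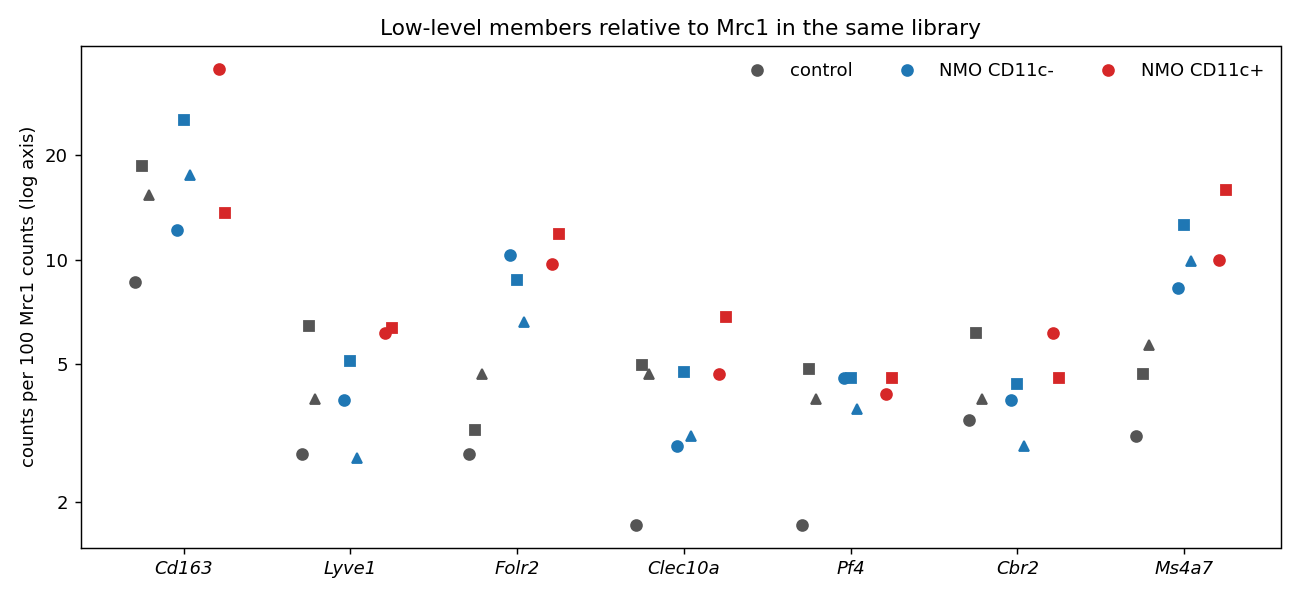
Counts of each member per 100 counts of Mrc1 in the same library, by group (points are libraries, and Stab1 is left out for its scale). Folr2 and Ms4a7 lie above all 3 controls in both NMO groups, and the other 5 genes overlap the controls.

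The genes most like each member over the 8 libraries (Pearson r of log2 CPM among genes of at least 5 CPM) were mostly outside the macrophage lists. For Mrc1 they were F13a1 (r = 0.967), the coagulation factor XIII subunit found in macrophages, LTO1 (0.958) and Asb8 (0.946). F13a1 had 16.1 and 6.17 CPM in CD11c+ libraries, 14.2, 16.0 and 14.6 CPM in NMO CD11c- libraries and 5.26, 13.5 and 7.32 CPM in controls. That is the same library order as Mrc1 in each group except within the closely spaced NMO CD11c- replicates 1 and 3. For Folr2 they were Mllt11 (0.976), Ppif (0.975) and Foxred1 (0.974), for Ms4a7 Ubfd1 (0.97), Taf1 (0.964) and Crebzf (0.959), and for Stab1 Rcl1 (0.984), Men1 (0.975) and Mettl14 (0.973). With all tested genes of at least 5 CPM ranked over 8 libraries, such values describe these libraries only.

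Other genes known from border macrophages were counted in the same fit. Several stood above Mrc1 (53.9 CPM) in controls, among them Apoe at 631.3, Maf at 535.7 and Hpgd at 385.3 CPM. Which cells their RNA came from was not tested. Of 29 further border macrophage genes 20 were tested, and 4 were called higher and 0 lower in NMO CD11c- cells against controls. Siglec1, a sialic acid receptor also induced by interferon, rose 3.72-fold from 8.68, 15.5 and 15.4 CPM in controls to 44.3, 55.9 and 47.8 CPM (log2 1.90, SE 0.23, adjusted p = 0.00206). Cp, the copper enzyme ceruloplasmin, rose from 6.9 to 25.8 CPM (log2 1.89, adjusted p = 0.000843), and Apoe, a lipid carrier, from 631.3 to 2181 CPM (log2 1.79, adjusted p = 0.012). Dab2, an endocytic adaptor, rose from 40.5 to 68.1 CPM (log2 0.75, adjusted p = 0.0137). The Siglec1 and Cp calls held with each library left out in turn.

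The Apoe call was lost without NMO CD11c- replicate 2 (adjusted p = 0.0514) or control replicate 1 or 3 (0.0536 and 0.0623). The Dab2 call was lost without NMO CD11c- replicate 1 or 2 (0.0538 and 0.0609) or control replicate 1 or 3 (0.0669 and 0.0805). With a library left out the count of this list ran from 2 to 5 higher; it was 2 without NMO CD11c- replicate 2, control replicate 1 or control replicate 3. F13a1 itself was not called, at 14.9 against 8.69 CPM (log2 0.76, adjusted p = 0.295). The median of the 20 was 0.30.

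In CD11c+ cells against controls 3 of these 20 genes were called higher and 2 lower, and 0 were called between the NMO groups by edgeR (5 at an unadjusted p under 0.05). Siglec1 stood at 61.4 CPM (log2 2.21, adjusted p = 0.000754), Apoe at 3956 CPM (log2 2.65, adjusted p = 0.00122) and Cp at 17.6 CPM (log2 1.34, adjusted p = 0.0061), and all 3 calls held with each library left out. Hpgd, the enzyme that breaks down prostaglandins, was lower at 242.2 against 385.3 CPM (log2 -0.67, adjusted p = 0.0199), a call lost without control replicate 1, 2 or 3 (0.0619, 0.0703 and 0.0718). Maf, a transcription factor of tissue macrophages, was lower at 387.8 against 535.7 CPM (log2 -0.47, adjusted p = 0.0497), a call kept in 1 of the 8 fits with a library left out. Both counts changed without CD11c+ replicate 2. That fit leaves 1 CD11c+ library, replicate 1 with the GC trend, so its calls are not given.

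**Figure D5:**
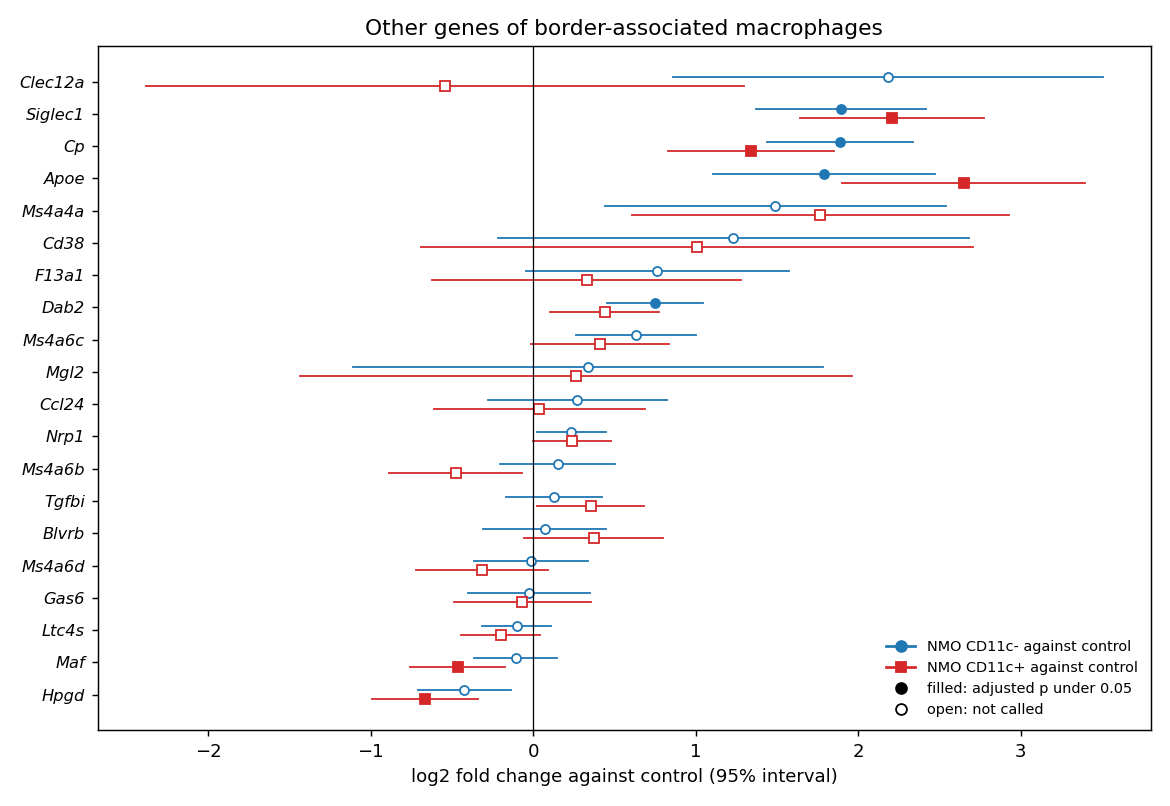
Fitted log2 differences from controls, with 95% intervals, of the 20 tested genes of the further border macrophage list, in NMO CD11c- cells (circles) and NMO CD11c+ cells (squares), which share the control libraries. Filled symbols have an adjusted p under 0.05: Siglec1, Cp and Apoe are filled in both comparisons, Dab2 in the first, and Hpgd and Maf, both lower, in the second.

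Relatives of the members in their own gene families were mostly low in counts or not called. Of 26 such genes 12 were tested, with 2 called higher in NMO CD11c- cells against controls, 1 in CD11c+ cells against controls and 0 between the NMO groups by edgeR (3 at an unadjusted p under 0.05). Ms4a4c, of the same MS4A family as Ms4a7, rose from 2.04 CPM in controls to 9.95 CPM in NMO CD11c- cells (log2 2.25, adjusted p = 0.00385) and 11.5 CPM in CD11c+ cells (log2 2.46, adjusted p = 0.00185), in every fit with a library left out. Cd44, the widely expressed hyaluronan receptor related to Lyve1, rose from 8.73 to 30.1 CPM in NMO CD11c- cells (log2 1.79, adjusted p = 0.0118), a call lost without control replicate 1 or 2 (0.0724 and 0.0636). The counts of this list in both CD11c+ comparisons changed without CD11c+ replicate 2, a fit that leaves 1 CD11c+ library, replicate 1 with the GC trend.

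Other MS4A genes did not pass in that comparison: Ms4a14 had 3.27 against 0.779 CPM (log2 2.03, adjusted p = 0.0661), Ms4a6c 25.4 against 16.3 CPM (adjusted p = 0.07), Ms4a4a 2.69 against 0.93 CPM (0.118), Ms4a6b 93.0 against 83.7 CPM (0.672) and Ms4a6d 74.8 against 75.6 CPM (0.971). Folr1, the other folate receptor tested, had 1.5 against 3.36 CPM (log2 -1.17, adjusted p = 0.351), in the opposite direction to Folr2. Cd163l1, the relative of Cd163, and Ppbp, the relative of Pf4, had no counts in any library, and neither had Ms4a4d, Ms4a5, Ms4a8a, Ms4a10 or Ms4a15.

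Some scavenger receptors outside the member list were called. Of 15 such genes 9 were tested, and 4 were called higher and 0 lower in NMO CD11c- cells against controls, with a median log2 difference of 1.06 over the 9. Cxcl16, a membrane chemokine that also binds oxidised lipoprotein, rose from 45.0 to 94.1 CPM (log2 1.06, adjusted p = 0.000752). Msr1, scavenger receptor A, rose from 3.73 to 17.0 CPM (log2 2.17, adjusted p = 0.00842), and Cd36, a fatty acid and lipoprotein receptor, from 2.87 to 7.7 CPM (log2 1.41, adjusted p = 0.0141). Cd5l, a secreted scavenger protein of macrophages, rose from 0.71 to 3.23 CPM (log2 2.15, adjusted p = 0.0153). The Cxcl16 call held with each library left out, while the count of this list ran from 1 to 6 and was 1 without control replicate 1 or control replicate 3. In CD11c+ cells Cxcl16 (148.9 CPM, log2 1.73, adjusted p = 4.13e-05), Cd5l (3.0 CPM, 2.05, 0.0185) and Cd36 (7.23 CPM, 1.32, 0.0189) were called against controls, and the count ran from 1 to 5 with a library left out. The Cd36 call was lost without CD11c+ replicate 1 (0.0727) or control replicate 1 or 3 (0.0623 and 0.0652), and the Cd5l call without control replicate 1, 2 or 3 (0.0673, 0.0504 and 0.0611). Between the NMO groups 0 genes of this list were called by edgeR (2 at an unadjusted p under 0.05). The number called changed without CD11c+ replicate 2, which leaves 1 CD11c+ library, replicate 1 with the GC trend.

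Some of the signals that shape such macrophages were called. Over all tested genes, 3% were called higher and 0.717% lower in NMO CD11c- cells against controls, and 6.85% and 3.36% in CD11c+ cells. Of 20 polarising signals and regulators 14 were tested, with 2 called higher in NMO CD11c- cells against controls: Il2rg, the shared chain of several interleukin receptors (8.41 against 3.16 CPM, log2 1.41, adjusted p = 0.0108), and Csf1, the macrophage growth factor (77.7 against 50.1 CPM, log2 0.64, adjusted p = 0.0468). The Il2rg call was lost without control replicate 2 (adjusted p = 0.0636) or 3 (0.0567), which left 0 of the list called. The Csf1 call held in 2 of the 8 fits with a library left out, and in CD11c+ cells (127.2 CPM, log2 1.35, adjusted p = 0.000964) in 8 of 8. In CD11c+ cells against controls 3 of the 14 were called higher (Il2rg, Csf1 and Il4ra) and 1 lower (Nr3c1, the glucocorticoid receptor). Il4ra, a receptor chain for interleukins that drive alternative activation, stood at 342.6 against 245.5 CPM (adjusted p = 0.0451), and Nr3c1 at 192.9 against 289.2 CPM (adjusted p = 0.0439), and each of these calls held in 2 of the 8 such fits. Il13 had no counts in any library.

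Alternative activation genes were called in both directions. Of 10 genes 5 were tested, and in NMO CD11c- cells against controls Fgl2, a secreted and membrane-bound fibrinogen-like protein, rose from 21.0 to 67.4 CPM (log2 1.68, adjusted p = 0.00198) while Tgm2, a protein-crosslinking enzyme, fell from 114.4 to 62.2 CPM (log2 -0.88, adjusted p = 0.00324), both in every fit with a library left out. In CD11c+ cells against controls Fgl2 was higher (74.9 CPM, log2 1.84, adjusted p = 0.000989), and Tgm2 (72.6 CPM, log2 -0.66, adjusted p = 0.0156, lost without control replicate 1 or 2 at 0.0607 and 0.0634) and Chil3 were lower. Chil3, a chitinase-like protein also made by neutrophils, had 0.613 and 0.705 CPM in CD11c+ libraries (3 and 4 counts), 196.6, 865.6 and 113.9 CPM in NMO CD11c- libraries and 57.2, 71.1 and 120.8 CPM in controls. It was called lower in CD11c+ cells than in controls (adjusted p = 0.0115) and than in NMO CD11c- cells (adjusted p = 0.0223), where it was the 1 gene of this list called. Without CD11c+ replicate 1 both calls were lost (0.0782 and 0.12), and the second also without control replicate 2 (0.058) and with only those 2 groups in the fit (0.112).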

How the data were processed

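Raw gene counts were used as deposited by the authors, 1 table of 41388 Ensembl identifiers per library, and no sample column was left out. Per the submitters' processing notes, STAR 2.3.11, HTSeq 0.5.4, edgeR 3.12.0 and the GRCm38 build were used, and the labels' protocols name an Illumina TruSeq RNA kit. For the annotation release and the strand setting of the counting, both not given in the sources used here, nothing was assumed. Symbols, coordinates, exon lengths and GC content came from GENCODE M21 on GRCm38: 40340 identifiers matched a symbol and 1048 did not (0.093% of counts).

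The low-count filter was filterByExpr by group (minimum count 10; 12002 genes kept), and scaling was by TMM. The 8 libraries entered 1 edgeR 4.0.16 quasi-likelihood fit (R 4.3.3, 5 residual and 5.08 prior degrees of freedom), and each comparison was a contrast of its groups. Calls are at 0.05 on the Benjamini-Hochberg adjusted p over all tested genes, which adjusted p means throughout. CPM use the TMM-scaled library size. Group values are mean ± SD, SE belongs to the fitted log2 difference, and Poisson intervals cover counting error only. Replicate pairs differed by a chi-square of 5.9 to 34.0 per degree of freedom, more than counting error alone gives. All 8 were counted as separate samples, though this check cannot show that they came from different mice.

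The members and the gene lists were chosen with earlier results of these data known, and no list was tested as a set. Genes are named by a rule: all members, any gene of the further border macrophage and family lists, up to 6 called genes and the 3 most abundant of each other list, the 3 genes most like each member, and Itgax, Itgam and Ptprc. Nt5dc2 and Gm10602 are named for their overlap with a member. Pdpn, Mmrn1, Gp6 and Il13, outside the rule, were named after they were seen to have no counts, and Ly6g after it was seen to have none in CD11c+ libraries. The alternatives were DESeq2 1.42.0, edgeR's exact test, 3 other scalings, other low-count filters, a fit to only the groups compared, a correction for GC content and length, and leaving out each library. The fit was tested on simulated counts. There the share of false calls lay above 0.05 in both comparisons with controls and below it between the NMO groups.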

Additional observations from a re-analysis of the deposited data

How the results depend on the processing

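No paired analysis was possible because the replicate numbers come from the order of accessions and nothing in the labels ties 2 libraries to 1 mouse. In NMO CD11c- against control, 2 to 3 members were called under the 9 alternatives that kept every library, and 0 to 2 with a library left out. In CD11c+ against control, where 1 member was called, the count was 0 with library size only and with only the 2 groups compared, 2 with no low-count filter, DESeq2, the edgeR exact test and the GC and length correction, and 0 to 2 with a library left out. Between the NMO groups it was 0 to 1 with a library left out. Other differences that changed sign were not called under the settings named here, with the 1 exception given for Stab1 below. Mrc1 in CD11c+ against control was 3.115e-05 with RLE scaling, 0.022 with upper quartile scaling and 0.0046 at a minimum count of 30. It was 0.0058 with DESeq2, 0.0040 with the exact test and, further from 0, 0.21 after the GC and length correction. That correction also gave Cbr2 -0.075 (NMO CD11c- against control), -0.044 (between the NMO groups) and -0.12 (CD11c+ against control), Stab1 -0.077 between the NMO groups and -0.11 against controls, and Pf4 -0.013 in CD11c+ against control. With a library left out, the log2 differences in NMO CD11c- against control ran from -0.21 to 0.96 for Lyve1, -0.23 to 0.77 for Cbr2 and -0.17 to 0.83 for Clec10a. Between the NMO groups they ran from -1.41 to 0.81 for Cd163, -0.27 to 0.52 for Lyve1, -0.68 to 0.59 for Cbr2, -0.053 to 0.45 for Clec10a, -0.25 to 0.39 for Stab1 (called at 0.39, without CD11c+ replicate 2), -0.50 to 0.058 for Folr2 and -0.41 to 0.0049 for Ms4a7. In CD11c+ against control they ran from -0.48 to 0.36 for Mrc1, -0.66 to 1.56 for Cd163, -0.10 to 1.12 for Lyve1, -0.31 to 0.77 for Pf4, -0.58 to 0.85 for Cbr2, -0.067 to 0.93 for Clec10a and -0.31 to 0.33 for Stab1 (called at 0.33, without the same library). The cause of these shifts was not tested. At 5 to 69 counts a library, a small difference was not detectable in members other than Stab1, Mrc1 and Cd163. Nor was it in Cd163, whose SE was the largest of the 9 members in each comparison (0.579, 0.645 and 0.653).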
